A study of Mus musculus with 10 samples.

Results

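The genes described here are the replication-dependent core histone genes and the linker histone genes of mouse liver. They were chosen by symbol (H1f, H2ac, H2bc, H3c or H4c followed by a digit) and by a minimum of 10 counts in at least 5 of 10 libraries. Of 27179 genes in the count table, 67 had such a symbol and 61 of these reached the minimum: 6 H1, 15 H2A, 16 H2B, 12 H3 and 12 H4 genes. Those left out were H2ac1 and H2ac10, with 0 counts in every library, and the linker genes H1f6, H1f7, H1f8 and H1f10. The minimum was reached in all 10 libraries by 59 genes. Just inside it lay H2bc14, which reached it in 9 libraries, and H2ac21, which reached it in 8, and just outside it lay H1f10, which reached it in 1. The counts chose the genes, so their levels are a description. No gene entered through 1 group alone, and 0 of the 61 reached the minimum in fewer than 3 libraries of either group.

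Liver RNA was sequenced in bulk from 2 groups of 5 male C57BL/6 libraries, all on a NASH diet (a diet used to model non-alcoholic steatohepatitis) for 12 weeks. The LKO group was Lpcat3 f/f with Albumin-Cre, a recombinase driven by the albumin promoter, which is active in hepatocytes and leaves Lpcat3 intact in cells that do not use it. The control group was Lpcat3 f/f without Cre, so both groups carry the floxed alleles. Ages are not given in the labels, and nothing there says that the libraries came from separate mice, so the p-values measure the spread between these libraries. Titles also hold a code of unstated meaning: the LKO libraries carry A54 (2 libraries) or A67 (3 libraries), and the control libraries A54 (1 library) or A55 (4 libraries).

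Replication-dependent histone genes supply the protein on which newly copied DNA is wrapped. H2A and H2B form dimers, H3 and H4 form a tetramer, and linker histone H1 binds where DNA enters and leaves the particle. These genes are clustered, lack introns, and are expressed mainly while a cell copies its DNA. Their mRNA carries no poly(A) tail but ends in a stem-loop bound by SLBP, the stem-loop binding protein. In adult liver most hepatocytes are not dividing, and some histone genes are known to be expressed in resting cells, among them H1f0, which codes for the linker histone H1.0 of differentiated cells. The labels' protocol names ribosomal RNA removal and no poly(A) selection, so RNA that ends in a stem-loop can be counted.

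Library totals ran from 29127474 to 39668872 counts in LKO and from 26914124 to 46727182 in control, and the histone genes took 0.0838% to 0.124% of them in LKO, against 0.0675% to 0.0901% in control. Lpcat3, the targeted gene, averaged 31.3 ± 4.65 CPM (counts relative to the scaled library size) in LKO and 108.6 ± 13.3 CPM in control (SD, n = 5 each; log2 fold change -1.79, SE 0.12, edgeR adjusted p = 0.000151). Summed hepatocyte markers ran from 41990 to 62950 CPM in LKO and from 47400 to 82640 CPM in control, and the labelled tissue was plain in every library. Control 4 stood apart from its group: on principal component 1 (56.8% of the variance) LKO libraries lay between -8 and 82.3, control 4 at 30.2 and the other control libraries between -52.7 and -30.1. Results below are therefore also given without it where that changes them. Control 4 was picked from these same data as the control library that lay among the LKO libraries. Leaving it out therefore favours a difference between the groups, and calls made without it are not independent support.

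The stem-loop is the feature that these RNAs share and the choice of genes did not use. A search of the GENCODE M21 transcripts (GRCm38) for the stem-loop motif, a 16-base run that starts with GG, ends with CC, holds CTTNTNAG in its middle and can pair its first 6 with its last 6 bases, on the transcript strand, found it in 42 of the 61 histone genes (68.9%), against 61 of 55450 genes in the whole annotation (0.11%). It was present in 3 of 6 H1, 10 of 15 H2A, 9 of 16 H2B, 9 of 12 H3 and 11 of 12 H4 genes. Some genes without a match, such as H2bc13, H2ac13 and H3c10, have annotated transcripts that barely exceed the coding sequence. A stem-loop after it could not be found there, so these shares may be too low and do not compare the classes. The sequences of the gene with the clearest difference and of 4 genes from the other classes are shown, with the stem-loop in capitals and 5 bases on each side in lower case.
H2bc12 (H2B, chromosome 13): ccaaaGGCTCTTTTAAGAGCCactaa
H2ac7 (H2A, chromosome 13): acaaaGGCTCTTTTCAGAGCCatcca
H3c15 (H3, chromosome 3): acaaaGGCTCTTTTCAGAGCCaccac
H4c8 (H4, chromosome 13): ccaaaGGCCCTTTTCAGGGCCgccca
H1f2 (H1, chromosome 13): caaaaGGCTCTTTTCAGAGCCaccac
The form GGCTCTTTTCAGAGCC occurred in 3 H1, 9 H2A, 7 H2B and 5 H3 genes. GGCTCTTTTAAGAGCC occurred in H2bc12, H2bc3 and 3 H3 genes. The H4 genes had other stems, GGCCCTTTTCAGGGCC in 6 of them. No match was found in the transcripts of H1f0 or H2bc4, the histone genes with the highest levels per length of coding sequence. That does not show that they lack a stem-loop outside the annotated transcripts.

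The histone classes had different median fold changes. The median log2 fold change (LKO over control) was 1.16 over 15 H2A genes and 0.87 over 12 H3 genes. It was 0.55 over 16 H2B genes, 0.05 over 12 H4 genes and 0.17 over 6 H1 genes, and differences between the classes were not tested. The median counts each gene alike, and summed H2A RNA was 197.1 ± 17.6 CPM in LKO and 163.6 ± 29.6 CPM in control (log2 ratio 0.27). For comparison, the median over all 15226 genes tested was -0.00. Above 0 lay 15 of 15 H2A (H2ac18 and H2ac19 by less than 0.01), 12 of 12 H3, 14 of 16 H2B, 9 of 12 H4 and 4 of 6 H1 genes, 54 of 61 in all, beside 49.5% of all genes tested. Under scaling by total counts the median of all genes moved to 0.235, the histone genes above 0 became 60, and 54 of them again lay above that median, while with the title code as a covariate 40 of 61 lay above 0. In whole tissue, fewer cells of a type and less RNA per cell cannot be told apart.

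At an adjusted p under 0.05 (edgeR quasi-likelihood test, adjusted over all genes), 1 of the 61 histone genes was higher in LKO and 0 were lower, beside 0.0263% of all genes tested that were higher and 0.0394% that were lower. At an unadjusted p under 0.05, 34 histone genes were higher and 1 was lower, beside 12.8% and 9.5% of all genes tested. The 34 were 11 of 15 H2A, 10 of 16 H2B, 10 of 12 H3, 2 of 12 H4 and 1 of 6 H1 genes. Genes of a class may share reads, so the 34 are not independent measurements. A read of 101 bases was unique to its gene at a median of 23.9% of positions in H2A genes (0.0% to 98.8%). In H3 genes the median was 50.6% (0.0% to 79.6%). The LKO and control ranges did not overlap for 8 genes, all higher in LKO, beside 1.72% of all genes tested. These 8 were H2bc12, H2bc13, H2bc23, H2bc11, H3c14, H3c15, H4c17 and H4c18. How many genes passed the adjusted threshold depended on control 4 and on the fit. Without control 4, 29 histone genes were higher and 1 lower, beside 10.2% and 4.75% of all genes. Without LKO 3 alone, 0 histone genes passed, beside 11 of 15292 genes tested (edgeR). With DESeq2 on all libraries 27 were higher and 1 lower, beside 4.16% and 3.63% of all genes. With limma voom and quality weights, which down-weight libraries that stand apart, 30 were higher and 1 lower, beside 10% and 6.11% of all genes, and without both control 4 and LKO 3 (edgeR) 26 were higher and 1 lower, beside 9.87% and 5.73%. With the title code as a covariate, which leaves 2 LKO libraries against 1 control library to carry the difference, 0 of the 61 and 0 of all genes passed, 8 histone genes were higher and 3 lower at an unadjusted p under 0.05, and 3.09% and 1.9% of all genes were.

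**Figure D1:**
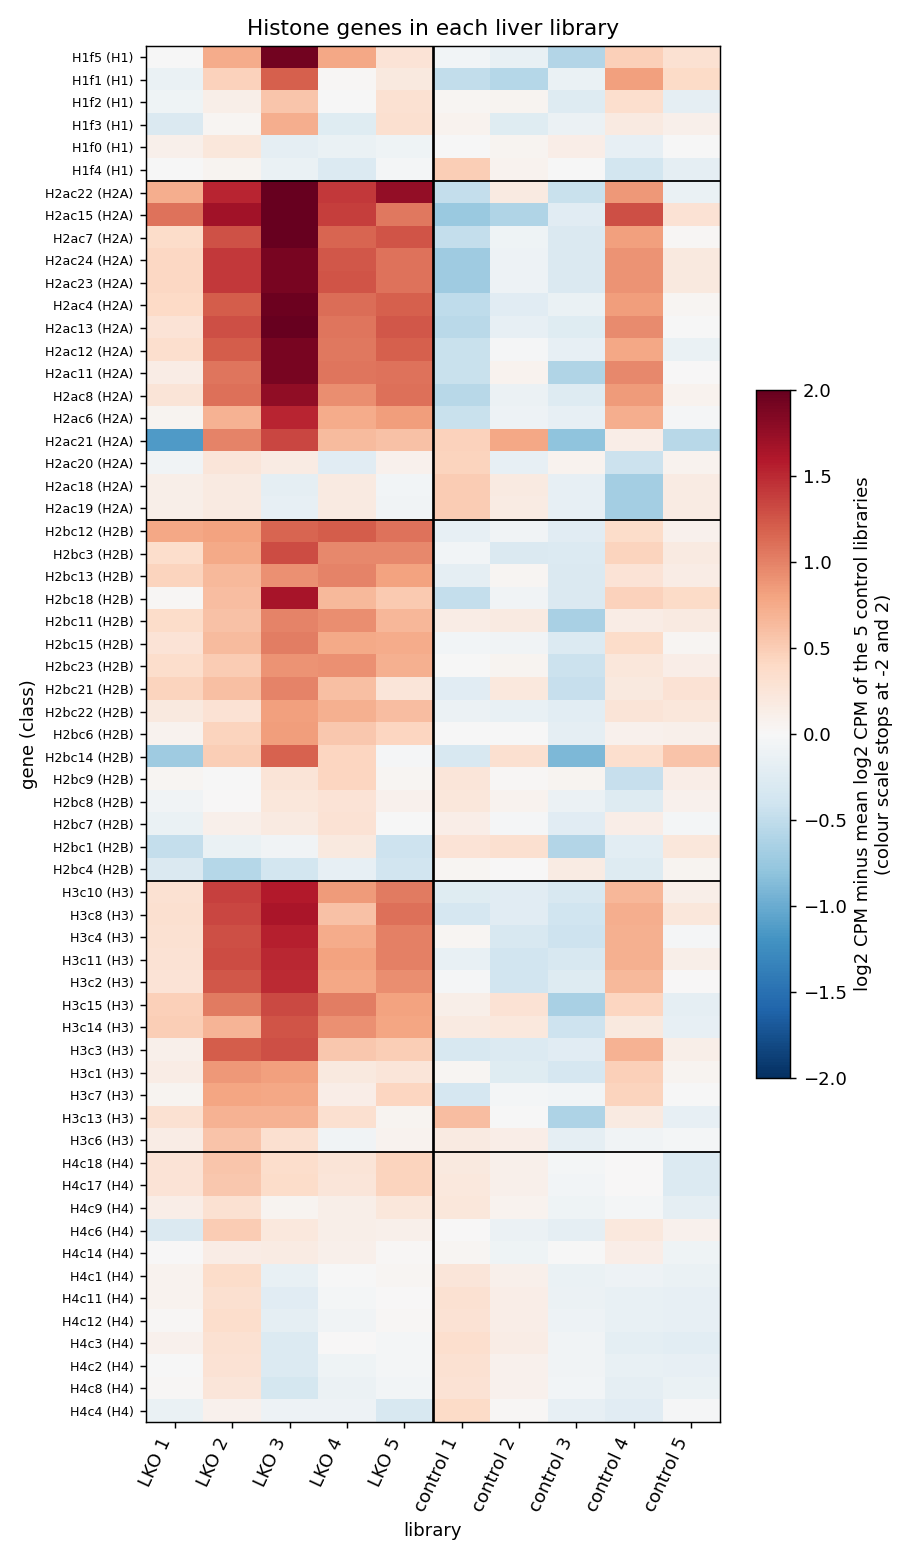
Log2 CPM of each histone gene (rows, by class) in each of 5 LKO and 5 control libraries (columns), minus the mean of the control libraries for that gene; the colour scale stops at -2 and 2. Most H2A and H3 rows are highest in LKO 3 and lie above the control mean in control 4, while the H4 rows stay pale throughout.

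H2A genes, which code for one partner of the H2A-H2B dimer, are given by chromosome, and a difference between the chromosomes was not tested. All 11 on chromosome 13 were higher in LKO at an unadjusted p under 0.05, beside 12.8% of all genes tested. Their log2 fold changes ran from 0.79 to 1.51. None passed the adjusted threshold (edgeR, lowest adjusted p = 0.0868). Reads may be shared among these genes, so the 11 are not independent measurements. The 4 on chromosome 3 had log2 fold changes from 0.00 to 0.58 and none had an unadjusted p under 0.05, with H2ac21 at 0.58 (SE 0.43) the highest. Summed over the 11 genes, H2A RNA was 32.9, 61.2, 95.3, 55.7 and 55.5 CPM in LKO 1 to 5 and 17.1, 23.7, 21.1, 47.0 and 26.8 CPM in control 1 to 5, with means of 60.1 ± 22.5 and 27.1 ± 11.7 CPM. LKO 3 was the highest library of all, control 4 was above LKO 1, and the groups overlapped through these 2 libraries. Summed over the 4 genes on chromosome 3, H2A RNA was 136.9 ± 13.5 CPM in LKO and 136.4 ± 38.6 CPM in control. Other classes did not show this contrast. The median log2 fold change of H2B genes was 0.66 for 2 on chromosome 3 and 0.50 for 14 on chromosome 13. For H3 genes it was 0.83 for 3 and 0.95 for 9, and for H4 genes 0.09 for 1 and 0.03 for 11. Without control 4, all 11 H2A genes on chromosome 13 and 0 of the 4 on chromosome 3 passed the adjusted threshold. Beside them, 10.2% of all genes were higher in that fit, which favours a difference between the groups.

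H2ac22 had the largest fold change of all 61 genes. Its level was 1.13, 1.97, 3.21, 1.83 and 2.31 CPM in LKO 1 to 5 and 0.491, 0.773, 0.506, 1.26 and 0.628 CPM in control 1 to 5. Control 4 lay just above LKO 1, and every other control library lay below all LKO libraries. The log2 fold change was 1.51 (SE 0.33, edgeR adjusted p = 0.0868).

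H2ac18 on chromosome 3 had the highest H2A level. It gave 69.1, 72.0, 56.1, 71.8 and 60.9 CPM in LKO 1 to 5 and 90.2, 71.9, 56.4, 39.6 and 71.1 CPM in control 1 to 5. Control 4 was here the lowest of the 10 libraries and control 1 the highest, and the LKO libraries lay between them (log2 fold change 0.00, SE 0.18, edgeR adjusted p = 0.993). H2ac19 had counts within 3.71% of those of H2ac18 in every library, so their reads cannot be assigned to 1 of them with confidence. Together the pair made up 66.4% of summed H2A RNA in LKO and 78.1% in control, as means of 5 libraries each. The lowest shares of the groups were 51.8% in LKO 3 and 60.0% in control 4. Shared reads, if counted for both genes, enter these shares more than once.

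H2B genes, whose products pair with H2A, included the single histone gene that passed the threshold, H2bc12 (NCBI Gene 319184). It had 7.25, 7.40, 9.52, 9.80 and 8.99 CPM in LKO 1 to 5 and 3.81, 4.04, 3.64, 5.51 and 4.51 CPM in control 1 to 5. All LKO libraries lay above all control libraries, control 4 and LKO 1 included. The means were 8.59 ± 1.19 CPM in LKO and 4.31 ± 0.75 CPM in control (SD, n = 5 each), and H2bc12 rose (log2 fold change 1.0, SE 0.14, edgeR adjusted p = 0.047). The call was close to the threshold. It was kept without control 4 (adjusted p = 0.00415) and without LKO 1 (adjusted p = 0.0396), and lost when any of LKO 2 to 5 or control 1, 2, 3 or 5 was left out, with adjusted p from 0.0589 to 0.16, while the log2 fold change stayed between 0.94 and 1.10. It was also lost with total-count scaling (1.22, adjusted p = 0.087) and with the title code as a covariate (0.94, adjusted p = 0.878).

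The promoter of H2bc12 is shown because it is the start that this gene shares with H2ac12, which is read in the other direction. It is the 300-base RefSeq window that holds the start, plus strand of GRCm38.p6, chr13:22035571-22035870. Capitals mark matches, searched on both strands, to the CCAAT box, to ATTTGCAT (the octamer known from H2B promoters), to the TATA box TATAAA and to TTTNGCGC (a form of the E2F site).
H2bc12: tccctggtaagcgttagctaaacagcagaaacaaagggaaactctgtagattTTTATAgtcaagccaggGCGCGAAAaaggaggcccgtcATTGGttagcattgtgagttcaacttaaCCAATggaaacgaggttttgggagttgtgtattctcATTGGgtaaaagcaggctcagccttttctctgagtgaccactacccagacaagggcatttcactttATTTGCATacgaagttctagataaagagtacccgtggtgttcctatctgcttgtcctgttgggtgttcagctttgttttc
RefSeq gave a window for 56 of the 61 genes. CCAAT occurred in all 15 H2A, all 15 H2B and all 10 H3 windows, in 5 of 6 H1 windows and in 3 of 11 H4 windows, against 37.4% of all 32851 windows. ATTTGCAT occurred in 5 H2A and 7 H2B windows and in no other class, against 1.74% of all windows. TTTNGCGC occurred in 6 H2A and 6 H2B windows and in no other class, against 1.38% of all windows. TATAAA occurred in 66.7% of H1, 66.7% of H2A, 46.7% of H2B, 40.0% of H3 and 72.7% of H4 windows, against 13.6% of all windows. H2A and H2B windows overlap where a pair shares its start, so these counts are not independent. The window of H4c8 on the same chromosome holds none of the 4 motifs.

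Next after H2bc12 by p-value among H2B genes came H2bc13, with 4.49, 5.19, 6.23, 6.59 and 5.80 CPM in LKO 1 to 5 and 2.91, 3.41, 2.70, 4.0 and 3.68 CPM in control 1 to 5. Its groups did not overlap (log2 fold change 0.76, SE 0.15, edgeR adjusted p = 0.0766). H2bc23 had 8.70, 9.70, 12.6, 12.8 and 11.1 CPM in LKO 1 to 5 and 6.80, 7.10, 5.03, 8.0 and 7.49 CPM in control 1 to 5, again without overlap (log2 fold change 0.67, SE 0.15, edgeR adjusted p = 0.0868). Its counts were identical in all 10 libraries to those of a neighbouring entry, H4bc24, so the gene that gave these reads is uncertain.

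H2bc3 had 3.46, 4.59, 6.71, 5.30 and 5.30 CPM in LKO 1 to 5 and 2.61, 2.21, 2.26, 3.71 and 3.07 CPM in control 1 to 5 (log2 fold change 0.87, SE 0.20, edgeR adjusted p = 0.0977). H2bc15 had 4.24, 5.46, 7.14, 5.98 and 5.92 CPM in LKO 1 to 5 and 3.40, 3.34, 2.90, 4.55 and 3.61 CPM in control 1 to 5 (log2 fold change 0.69, SE 0.16, edgeR adjusted p = 0.0977). For both, control 4 lay above LKO 1 and the other control libraries lay below every LKO library.

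H2bc4, the H2B gene with the highest mean CPM, lay below 0. It had 89.1, 73.2, 84.0, 96.9 and 83.1 CPM in LKO 1 to 5 and 111.6, 108.9, 121.4, 91.3 and 112.4 CPM in control 1 to 5. Control 4 was the lowest control library and the single one to fall within the LKO range. The means were 85.3 ± 8.72 CPM in LKO and 109.1 ± 11.02 CPM in control (log2 fold change -0.36, SE 0.10, edgeR adjusted p = 0.111). Without control 4 the log2 fold change was -0.41 (edgeR adjusted p = 0.0163), and under total-count scaling it was -0.11 while the median of all genes was 0.235. Because H2bc4 holds so much of the class, summed H2B RNA was 173.1 ± 18.3 CPM in LKO and 170.7 ± 8.20 CPM in control, although 14 of 16 genes had a fold change above 0. The other H2B gene below 0 was H2bc1, the testis form of H2B, at -0.20.

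**Figure D2:**
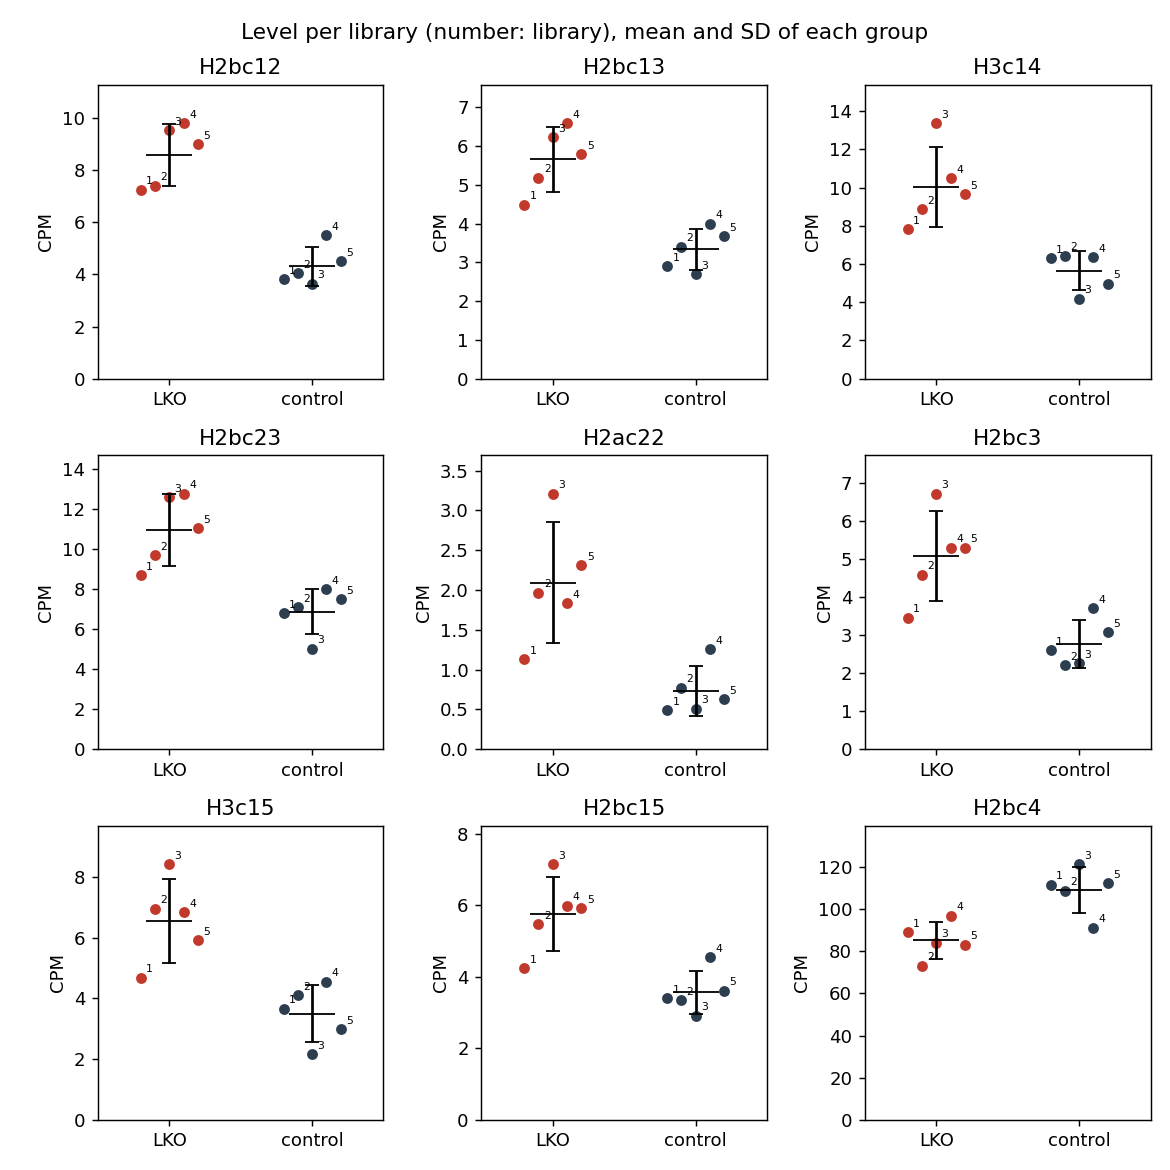
CPM of 9 histone genes in each library (points, numbered by library within the group; LKO left, control right), with the group mean and SD. H2bc12, H2bc13, H2bc23, H3c14 and H3c15 show no overlap between groups, control 4 is the highest control point in most panels, and in H2bc4 it is the lowest.

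H3 genes, whose products join H4 in the tetramer, were all above 0, from 0.22 for H3c6 to 1.04 for H3c10. Summed H3 RNA was 79.8 ± 19.6 CPM in LKO and 47.8 ± 9.87 CPM in control. The sums overlapped, with control 4 at 63.8 CPM above LKO 1 at 56.4 CPM. H3c14 on chromosome 3, the H3 gene with the highest level, had 7.82, 8.88, 13.4, 10.5 and 9.66 CPM in LKO 1 to 5 and 6.30, 6.43, 4.18, 6.35 and 4.98 CPM in control 1 to 5. The groups did not overlap and LKO 3 was the highest library (log2 fold change 0.83, SE 0.17, edgeR adjusted p = 0.0766). H3c15 beside it had 4.68, 6.96, 8.43, 6.85 and 5.92 CPM in LKO 1 to 5 and 3.66, 4.11, 2.16, 4.55 and 2.98 CPM in control 1 to 5, again without overlap (log2 fold change 0.91, SE 0.21, edgeR adjusted p = 0.0977). With the title code as a covariate the fold change of H3c14 was 0.41, against 0.83 without it.

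H4 genes code for the other partner in the tetramer. Their log2 fold changes ran from -0.12 for H4c4 to 0.37 for H4c17 and H4c18, and summed H4 RNA was 257.9 ± 28.4 CPM in LKO and 248.5 ± 31.8 CPM in control. H4c8, the most abundant of them, had 35.5, 41.3, 27.4, 32.1 and 33.7 CPM in LKO 1 to 5 and 42.8, 37.0, 33.5, 30.9 and 32.0 CPM in control 1 to 5, with the groups overlapping over most of their range (log2 fold change -0.05, SE 0.12, edgeR adjusted p = 0.819). H4c17 averaged 17.5 ± 1.52 CPM in LKO and 13.5 ± 1.63 CPM in control, without overlap (edgeR adjusted p = 0.109), and H4c18 had counts within 1.69% of it in every library. The pair counts as 2 of the 8 genes without overlap although their reads are nearly the same.

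Of the linker histones, H1f0 had 111.1, 120.4, 90.6, 94.1 and 97.5 CPM in LKO 1 to 5 and 102.8, 106.7, 113.4, 91.7 and 102.6 CPM in control 1 to 5 (log2 fold change -0.01, SE 0.10, edgeR adjusted p = 0.959). It lies on chromosome 15, outside the histone clusters. The replication-dependent linker genes lay on both sides of 0. H1f5 averaged 0.951 ± 0.566 CPM in LKO and 0.525 ± 0.146 CPM in control (log2 fold change 0.85, edgeR adjusted p = 0.217), with 1.93 CPM in LKO 3 and at most 0.866 CPM in the other LKO libraries, and without LKO 3 its log2 fold change was 0.42. H1f1 averaged 3.30 ± 1.35 and 2.62 ± 1.13 CPM in LKO and control (0.33), H1f2 49.9 ± 9.33 and 44.0 ± 7.17 CPM (0.18), H1f3 18.5 ± 5.68 and 16.7 ± 1.96 CPM (0.15), and H1f4 40.0 ± 3.37 and 43.0 ± 10.1 CPM (-0.10). LKO 3 was the highest LKO library for 4 of the 6 H1 genes and control 4 the highest control library for 4.

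**Figure D3:**
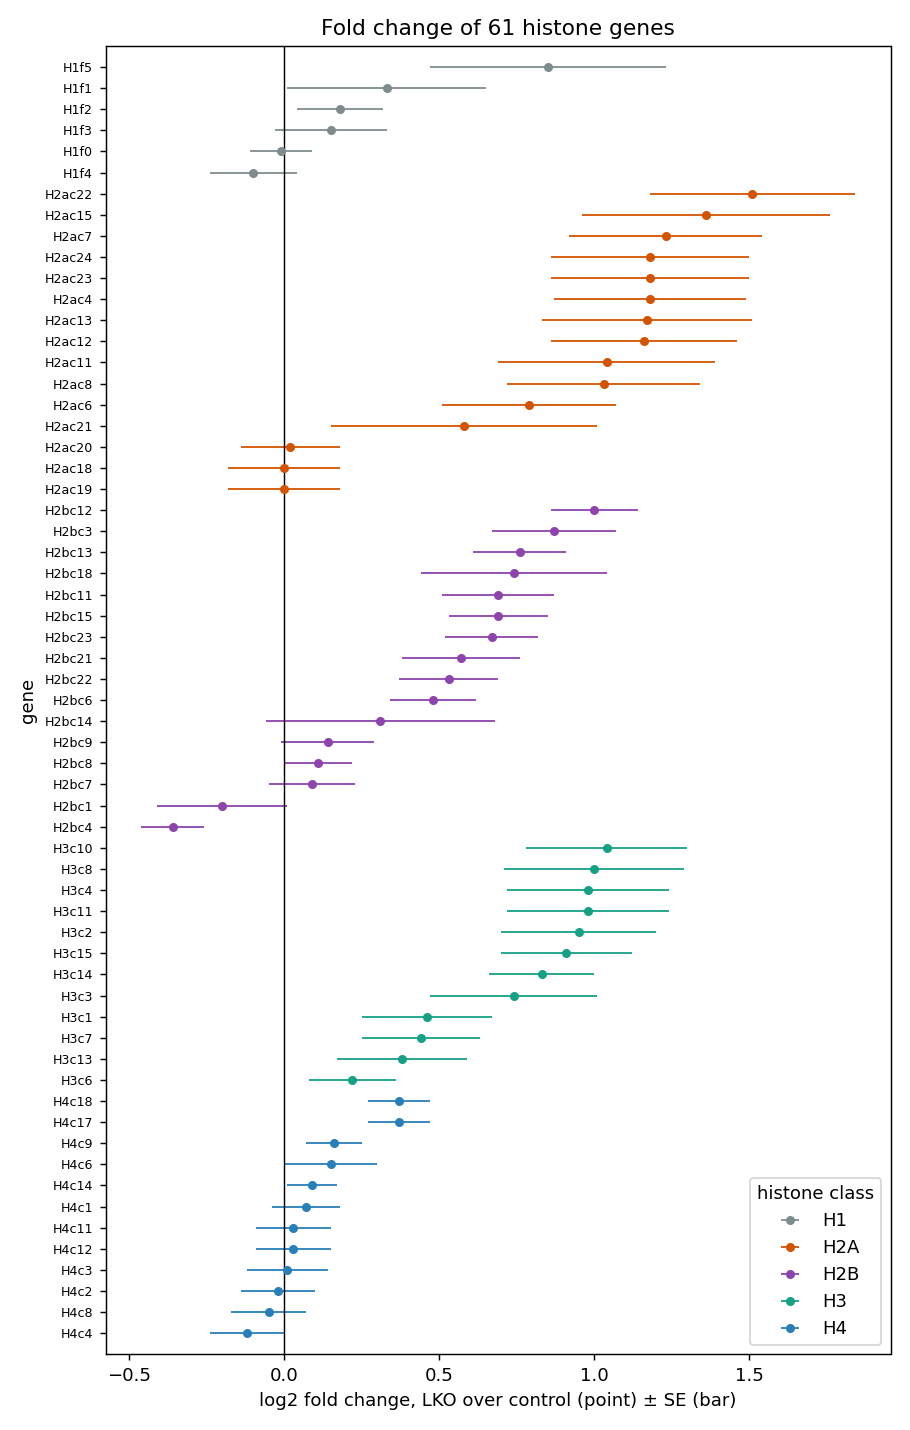
Log2 fold change of each of the 61 histone genes, LKO over control (points), with its standard error (bars), ordered by class. H3 points lie right of 0 and H2A points at or right of it, H4 points lie near it, and H2bc4 lies furthest to the left at -0.36.

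Levels can be compared between genes per length of coding sequence, a scale that leaves out untranslated bases although reads from them may be counted. On that scale H2bc4 had 226 CPM per kb in LKO and 289 in control, and in the same order of groups H1f0 had 176 and 178, H2ac18 169 and 169, H2ac19 164 and 164, and H4c8 110 and 114. H2bc12 had 22.7 CPM per kb in LKO and 11.4 in control, and H2ac22 had 5.36 in LKO and 1.87 in control. The 5 highest of the 61 genes on this scale were thus genes with fold changes near 0 or below it. H2ac18 and H2ac19 fill 2 of these places with counts within 3.71% of each other in every library. Their reads are nearly the same, so their equal levels do not compare the 2 genes.

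H2A and H2B genes often stand head to head, and 10 pairs among the 61 genes had starts within 1000 bases of each other on opposite strands. Within the pairs the estimated fold changes of the H2A gene and its H2B neighbour were not always close, but no ratio between them passed after adjustment. Reads may be shared among H2A genes, so the ratios may hold reads of genes outside the pair. For H2ac6 and H2bc4 the log2 fold changes were 0.79 and -0.36, and the log2 ratio of H2A to H2B RNA was 1.13 higher in LKO than in control (exact permutation test over 252 assignments of libraries, two-sided, p = 0.0238). For H2ac7 and H2bc7 they were 1.23 and 0.09, with a ratio 1.13 higher (exact p = 0.0159). For H2ac22 and H2bc22 they were 1.51 and 0.53, with a ratio 1.0 higher (exact p = 0.0159), and for H2ac8 and H2bc8 1.03 and 0.11, with a ratio 0.92 higher (exact p = 0.0476). With the exact permutation p adjusted over the 10 pairs, the first 3 had p = 0.0794 and the last p = 0.111, so 0 of the 10 ratios passed. In the pair H2ac12 and H2bc12, with 1.16 and 1.0, the ratio was 0.14 higher (exact p = 0.603). H2ac20 and H2bc21 on chromosome 3 ran the other way, with 0.02 and 0.57, and a ratio of -0.54 in LKO minus control (exact p = 0.119).

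**Figure D4:**
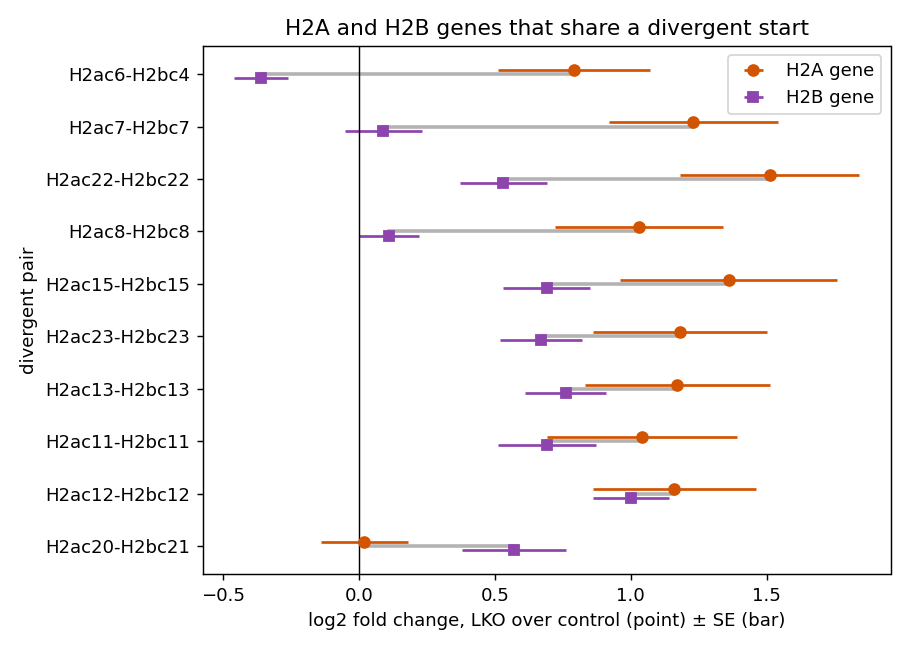
Log2 fold change, LKO over control, with standard error, of the H2A gene (circle) and the H2B gene (square) of 10 divergent pairs whose starts lie within 1000 bases. The H2A point lies right of the H2B point in every pair except H2ac20 with H2bc21, and in H2ac6 with H2bc4 the points lie on opposite sides of 0.

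How far single genes can be told apart varied by class. A read of 101 bases cut from a transcript matched no other annotated gene for a median of 99.6% of positions in H1, 74.8% in H4, 63.8% in H2B, 50.6% in H3 and 23.9% in H2A genes. The share was 29.3% for H2bc12, 16.7% for H2ac22, 74.7% for H2bc4, 100% for H1f0, and 0% for H3c14 and H2ac19. H2ac23 and H2ac24 had equal counts in 9 of 10 libraries. No source used here tells how the counting treated such shared reads.

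Libraries kept much the same order across H2A and H3 genes. LKO 3 was the highest LKO library for 12 of 15 H2A and 9 of 12 H3 genes, and control 4 the highest control library for 11 of 15 H2A and 9 of 12 H3 genes. Among H4 genes the same held for 1 and 2 of 12. Control 4 lay above LKO 1, the lowest LKO library for 40 of the 61 genes, in 35 of 61 genes. The mean log2 CPM of H2A genes, set against the control mean, was 0.23, 1.0, 1.46, 0.85 and 0.87 in LKO 1 to 5 and -0.27, -0.03, -0.26, 0.53 and 0.03 in control 1 to 5.

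Genes of G2 and mitosis followed a similar order. Their mean log2 CPM on the same scale was 0.73, 1.19, 2.60, 1.34 and 1.30 in LKO 1 to 5 and -0.49, -0.61, -0.12, 1.40 and -0.17 in control 1 to 5. Of 25 such genes 0 passed the adjusted threshold, 21 were higher and 0 lower at an unadjusted p under 0.05 (12.8% and 9.5% of all genes), and the median log2 fold change was 1.51. Ccnb2, a mitotic cyclin, differed by 2.04 (edgeR adjusted p = 0.134), Prc1, a spindle protein, by 1.72 (edgeR adjusted p = 0.114) and Cdk1, the mitotic kinase, by 1.51 (edgeR adjusted p = 0.122).

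Genes of DNA replication and S phase, the phase in which these histones are made, lay closer to 0. Their mean was 0.06, 0.25, 0.28, 0.17 and 0.14 in LKO 1 to 5 and -0.15, -0.19, -0.08, 0.36 and 0.05 in control 1 to 5. Of 41 genes, 27 lay above 0, beside 49.5% of all genes tested, and the median log2 fold change was 0.12. At the adjusted threshold 0 passed. At an unadjusted p under 0.05, 2 were higher and 4 lower (12.8% and 9.5% of all genes). Ccna2, the S phase and G2 cyclin, stood at 1.45 (edgeR adjusted p = 0.145). Rfc1 of the clamp loader was at -0.20 (edgeR adjusted p = 0.135) and Gins1 of the replicative helicase at -0.66 (edgeR adjusted p = 0.147).

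**Figure D5:**
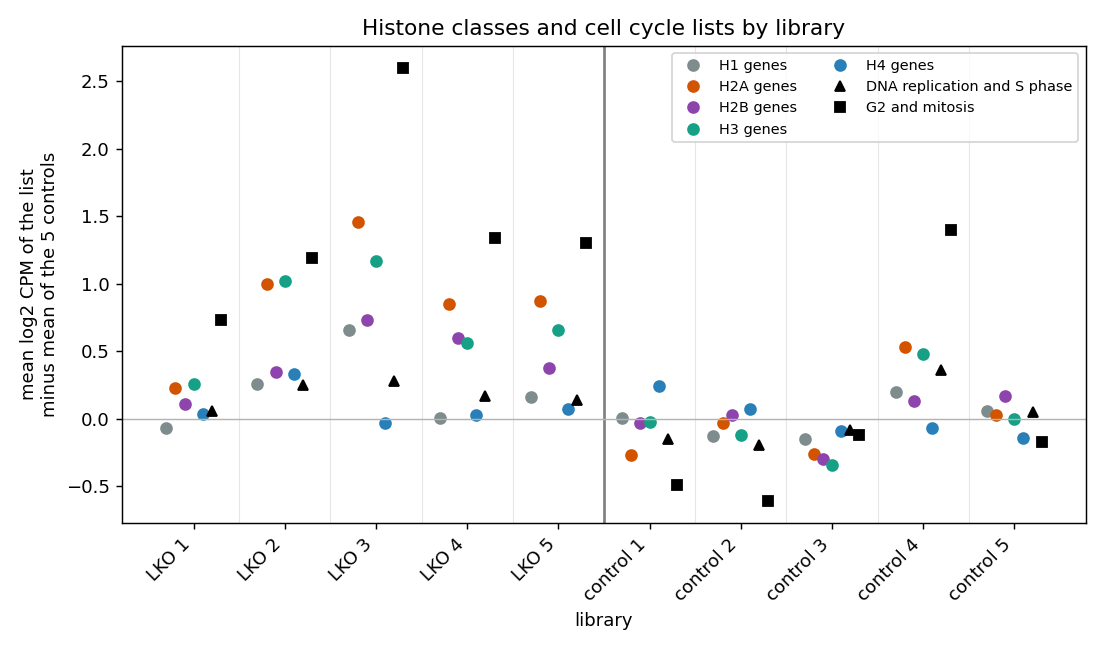
Mean log2 CPM of each histone class and of 2 cell cycle gene lists in each of 5 LKO and 5 control libraries, minus the mean of the control libraries. The G2 and mitosis list and the H2A and H3 classes are highest in LKO 3, and control 4 lies above the other control libraries for all of these.

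The machinery that makes and handles histones gave 0 genes past the adjusted threshold. Of 18 tested genes for histone gene transcription and 3' end processing, 1 was higher and 2 were lower at an unadjusted p under 0.05 (12.8% and 9.5% of all genes), with a median log2 fold change of -0.05. Lsm11, a subunit of the U7 particle that cleaves histone pre-mRNA, was at 0.58 (edgeR adjusted p = 0.157), and Mif4gd, which binds SLBP, at -0.31 (edgeR adjusted p = 0.172). Slbp itself averaged 15.6 ± 1.30 CPM in LKO and 15.5 ± 0.586 CPM in control, and Npat, the activator of histone genes in S phase, 17.0 ± 1.19 CPM in LKO and 17.8 ± 1.74 CPM in control. Slbp and Npat were picked for their known roles after the values were seen.

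Among 28 histone chaperone and nuclear import genes, 3 were higher and 3 lower at an unadjusted p under 0.05, shares near the 12.8% and 9.5% of all genes, with a median of 0.04. Hmgb2, a chromatin protein of dividing cells, was at 0.53 (edgeR adjusted p = 0.108), Rbbp4, a subunit of chromatin assembly factor 1, at -0.26 (edgeR adjusted p = 0.124) and Hira, the chaperone of variant H3.3, at -0.22 (edgeR adjusted p = 0.164). Of 10 tested histone variants and other histone genes whose symbols lie outside the rule, 3 were higher and 0 lower at an unadjusted p under 0.05 (12.8% and 9.5% of all genes), with a median of 0.08: H2az1 at 0.35, H2aw at 0.39 and H2ax, whose product is phosphorylated at DNA breaks, at 0.45, with edgeR adjusted p of 0.158, 0.175 and 0.218.

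Markers of other cell types differed between the same libraries to unequal degrees. On the scale used above for H2A genes, control 4 stood at 2.06 for recruited macrophage, 1.16 for cholangiocyte and 1.03 for stellate cell markers. It stood at 1.0 for T and NK cell, 0.75 for neutrophil and 0.46 for B and plasma cell markers. Values below 0 were -0.32 for Kupffer cell, -0.07 for endothelial, -0.50 for erythroid and -0.63 for hepatocyte markers. At an unadjusted p under 0.05 (edgeR), 5 of 12 recruited macrophage markers were higher in LKO, beside 12.8% of all genes. So were 4 of 10 stellate cell, 4 of 7 cholangiocyte, 5 of 11 Kupffer cell and 5 of 9 endothelial markers. The same held for 4 of 9 T and NK cell, 3 of 7 B and plasma cell and 4 of 4 neutrophil markers. Lower were 1 T and NK cell, 1 erythroid and 2 hepatocyte markers, beside 9.5% of all genes. All 12 recruited macrophage markers had a fold change above 0. Their sum ran from 288 to 1013 CPM in LKO and from 117.6 to 609.5 CPM in control. Control 4 was at 609.5 CPM and the other control libraries at no more than 172.5 CPM. Summed stellate cell markers ran from 576.9 to 1264 CPM in LKO and from 396.2 to 887.5 CPM in control, with control 4 again the highest control library, and 10 of 10 were above 0. Cholangiocyte markers, 7 of 7 tested above 0, ran from 33.6 to 394.3 CPM in LKO and from 27.5 to 166.6 CPM in control. Spp1 is in both this list and the recruited macrophage list. Kupffer cell markers (8 of 11 above 0) ran from 348.2 to 580.4 and from 294.7 to 401.6 CPM, endothelial markers (9 of 9) from 417.5 to 643.4 and from 406.8 to 481.4 CPM, T and NK cell markers (8 of 9) from 4.94 to 12.0 and from 3.86 to 9.19 CPM, B and plasma cell markers (6 of 7) from 13.8 to 20.3 and from 8.80 to 14.99 CPM, and neutrophil markers (4 of 4) from 6.69 to 12.0 and from 3.44 to 8.67 CPM, in LKO and control. Erythroid markers (4 of 7) ran from 116.7 to 251.6 CPM in LKO and from 181.6 to 307.7 CPM in control. None of the 10 hepatocyte markers had a fold change above 0, and their median was -0.42. No marker of these cell types was at 0 in all libraries. The part of these cells in the histone differences was not tested.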

How the data were processed

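The authors deposited a table of whole-number counts per gene and library, not normalized. Per the labels' protocols, ribosomal RNA was removed, libraries were stranded and 1 end was read for 101 cycles. The submitters' processing notes name GRCm39, bcl2fastq 2.20 and DESeq2; aligner, counter, strand option and gene models: not given in the sources used here. All 10 columns were matched to samples by name and 0 were not used. Symbols came from RefSeq (GRCm38.p6), which matched 25275 of 27179 genes; the rest, with 0.693% of counts, were tested without a name.

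Genes were filtered with filterByExpr, scaled with TMM and tested with edgeR 4.0.16 (quasi-likelihood F test, two-sided, legacy = TRUE, R 4.3.3), genotype as the only term, Benjamini-Hochberg over 15226 genes; 10 were called, 3402 had an unadjusted p under 0.05, and the common biological coefficient of variation was 0.242. All 61 histone genes passed the filter, with 6 to 4830 counts per library. CPM are TMM-scaled. Alternatives were DESeq2 1.42.0, limma 3.58.1 (voom with sample quality weights), other scalings, filters, covariates and left-out libraries. The scripts were tested on simulated data. Library pairs within a group differed beyond sampling noise (chi-square per degree of freedom at least 34.5). The replicate numbers did not pair the libraries.

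The histone genes and all lists were chosen with earlier results of these data known. Values in every library are given for genes with an adjusted p under 0.05, then by smallest p up to 8, and for the gene of highest mean CPM in each class; all H1 genes are given with group means, and up to 4 genes of smallest p of each other list. Sequences are from RefSeq (GRCm38.p6) and GENCODE M21 (GRCm38), another build than that of the counts.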

Additional observations from a re-analysis of the deposited data

Results flagged for a closer look

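In 46 groups of 5 values tested, 2 had a library far from the others of its group, a share near the 1 in 20 that chance gives. Both were LKO 3. H1f5, a replication-dependent linker histone gene, had 1.926 CPM there, and the nearest other LKO library had 0.8655 CPM. H1f10, which codes for the linker histone H1.10 and missed the count minimum, had 52 counts in LKO 3 and at most 6 in the other LKO libraries, against 0 to 7 in the control libraries. H1f10 was added to the tested values outside the rule that named the other genes, and no other gene below the minimum was tested. LKO 3 was the highest LKO library for 34 of the 61 histone genes and for the G2 and mitosis list. The cause of these values was not tested.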

How the results depend on the processing

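Of the alternatives for the 17 named histone genes, 328 kept the side of the threshold and, apart from H2ac18 (0.00, ranging from -0.35 to 0.27) and 2 values within A54, the sign, 34 moved a gene past it, 11 took H2bc12 below it, 3 moved a value beyond the spread and 15 turned the sign, none of them of a gene that passed the threshold. With total counts H4c8 stood at 0.19, H1f0 at 0.23 and H1f4 at 0.16, with upper quartile scaling H1f0 at 0.02, and with the title code H1f0 at 0.17, H1f2 at -0.02 and H1f3 at -0.19. Leaving out 1 library at a time gave -0.13 to 0.03 for H4c8, -0.07 to 0.03 for H1f0, -0.04 to 0.24 for H1f3 and -0.19 to 0.04 for H1f4. The number of genes called, 10 of all genes and 1 histone gene with edgeR, was 31 of all genes without a filter on low counts, 1186 and 28 with DESeq2, 2460 and 31 with limma voom and quality weights, and 2363 and 27 without control 4 and LKO 3. Leaving out single libraries gave 2 to 2296 genes and 0 to 30 histone genes, the highest in both cases without control 4. Total-count scaling called 0 histone genes and put the log2 ratio of the class sums at 0.28 for H1, 0.53 for H2A, 0.27 for H2B and 0.30 for H4, against 0.03, 0.27, 0.02 and 0.05. With the title code as a covariate 0 genes were called, 470 were higher and 290 lower at an unadjusted p under 0.05, and 0 histone genes were called. With the replicate number as a block 2 genes and 0 histone genes were called (H2bc12 adjusted p = 0.116); correlations of same-numbered libraries ran from -0.40 to 0.42, over 0.1 for 2 of 5 pairs, and 1 LKO library correlated best with its own number. Within A54, H3c14 was at 0.40, H1f0 at 0.17, H1f2 at -0.02, H1f3 at -0.19 and H1f4 at -0.47. The causes of these shifts were not tested. H2ac21, H2bc14 and H1f5 rest on the fewest counts.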
